A study of Mus musculus with 24 samples.

Results

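The appetite peptides of the arcuate nucleus are neuropeptide Y (Npy), agouti-related peptide (Agrp), pro-opiomelanocortin (Pomc) and the cocaine- and amphetamine-regulated transcript (Cartpt). Members were taken as every probe set whose annotation held exactly 1 gene symbol and whose symbol was one of these 4 genes, low signals included. This gave 3 probe sets of the 21789 with 1 symbol, among 35556 in all: 10538247 for Npy, 10394240 for Pomc and 10411527 for Cartpt. No probe set carried the symbol Agrp alone, so Agrp was not analysed here. The genes lie on mouse build GRCm38.p6 at chr6:49822710-49829507 (Npy), chr12:3954945-3960643 (Pomc) and chr13:99898483-99910179 (Cartpt).

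The study hybridised total RNA of the mediobasal hypothalamus of mice to Affymetrix whole-transcript arrays. Strain was labelled C57BL76J, and all groups shared that background with no genotype contrast; neither age nor sex is given here. In the timed sleep restriction groups (TSR), mice were kept awake by gentle handling between ZT0 and ZT6 for a block of 5 days, slept freely for 2 days and then went through a second block of 5. Control mice (CON) were left undisturbed. Tissue was taken at ZT1, ZT7, ZT13 and ZT19, where ZT is the time in hours after ZT0, with 3 arrays for each condition and time and 24 arrays in all. The design text counts 3 mice per group but does not tie each array to a mouse, so p-values measure the spread between arrays, part of which may be technical.

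Npy and Agrp are made by 1 population of arcuate neurons that drives feeding, and the peptides act through neuropeptide Y receptors and by blocking melanocortin receptors. Pomc is made by a neighbouring population and is cut into melanocortins, which act on melanocortin receptors and restrain feeding. Cartpt encodes a peptide that restrains feeding, is made by many Pomc neurons and is also made in other hypothalamic regions, the lateral hypothalamus among them. Leptin and insulin restrain Npy and Agrp and stimulate Pomc.

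The stretches of 250 bases before the RefSeq start sites of the 3 measured genes are printed because the 3 signals were compared across the same conditions, and these are the proximal control regions of the transcripts. All are from GRCm38.p6 and read 5′ to 3′ on the gene's own strand: chr6:49822460-49822709 on the plus strand for Npy, chr12:3954695-3954944 on the plus strand for Pomc, and chr13:99900684-99900933 on the minus strand for Cartpt. The Cartpt start site used, at base 99900683, lies inside the annotated span of the gene. Capitals mark matches to the searched motifs.
Npy promoter: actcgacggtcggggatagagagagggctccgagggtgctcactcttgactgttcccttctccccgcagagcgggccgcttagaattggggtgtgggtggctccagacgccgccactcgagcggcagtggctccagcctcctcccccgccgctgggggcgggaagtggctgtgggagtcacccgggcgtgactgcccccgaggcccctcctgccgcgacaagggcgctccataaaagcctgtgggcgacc
Pomc promoter: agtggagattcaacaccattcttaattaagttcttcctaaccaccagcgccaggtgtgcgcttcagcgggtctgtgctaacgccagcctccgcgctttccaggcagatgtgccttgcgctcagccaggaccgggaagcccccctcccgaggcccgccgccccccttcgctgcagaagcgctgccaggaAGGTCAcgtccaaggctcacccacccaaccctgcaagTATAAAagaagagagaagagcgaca
Cartpt promoter: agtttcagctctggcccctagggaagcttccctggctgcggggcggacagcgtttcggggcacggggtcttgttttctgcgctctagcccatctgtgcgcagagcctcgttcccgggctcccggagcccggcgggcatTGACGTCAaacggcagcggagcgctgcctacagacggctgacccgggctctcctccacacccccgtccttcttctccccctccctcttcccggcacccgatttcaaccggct
Both strands were searched for 7 motifs. The Cartpt stretch held 1 cAMP response element, TGACGTCA, that starts at base -112 from the start site; being a palindrome, it also gives 2 overlapping matches of its shorter core, TGACG. The Pomc stretch held a TATA box, TATAAA, at base -25 and an AGGTCA element at base -62, and no motif matched the Npy stretch. Among 32851 mouse promoter stretches of this length, 1.55% held TGACGTCA, 17.8% TGACG, 12.4% TATAAA and 14.0% AGGTCA. The other 3 motifs matched none of the 3 stretches: CACGTG (6.02% of all promoters), TTCNNNGAA (7.02%) and GTAAACA (3.17%). GC content was 69.2% for Npy, 66.8% for Cartpt and 60.0% for Pomc, against a median of 52.4%. A match describes letters in this window and is not evidence of binding.

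4 arrays stood apart from the rest, and the members' differences between conditions are given with all 24 arrays and with the 20 that remain without them. Their interquartile range over all probe sets was 2.12 to 2.25 log2 units, against 2.96 to 3.29 on the other 20, and 2.5 was the limit used. Their median rank correlation with the other arrays was 0.824 to 0.888, against 0.985 to 0.991. These narrow arrays were TSR replicate 3 at ZT1, TSR replicate 2 at ZT13 and CON replicates 2 and 3 at ZT19. CON at ZT19 therefore rests on 1 array in the 20, whose spread is taken from the other groups. All values below are log2 signals as deposited, and all differences are TSR minus CON on that scale.

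Npy was lower under sleep restriction at ZT1, the first sampling time after ZT0, once the narrow arrays were left out: 1.64-fold (95% interval 1.26 to 2.13). At ZT1 the Npy signal was 7.49, 6.996 and 7.16 in CON and 6.43, 6.58 and 6.68 in TSR, the last on a narrow array. Every TSR array lay below every CON array at this time; so did 8.36% of all probe sets, and 24.9% when the narrow arrays were left out. The difference was -0.71 ± 0.18 (SE, 2 TSR and 3 CON arrays, limma adjusted p = 0.0245) in the 20 arrays. With all 24 it was -0.65 ± 0.20 (3 against 3, limma adjusted p = 0.891). In that comparison 5.52% of all probe sets passed the threshold of adjusted p 0.05 in the 20 arrays, and 0.0918% in the 24. Markers of oligodendrocytes, the myelin-forming glia, moved in the same comparison: 6 of 8 were called higher in TSR at ZT1 in the 20 arrays, and their mean signal was 9.77 to 9.80 in TSR and 9.21 to 9.22 in CON. With 24 arrays 0 of 8 were called there by limma, 0 at an unadjusted p under 0.05, and the narrow TSR array was at 7.43. Their part in the Npy result was not tested. In tissue homogenates, fewer cells of a type and less RNA per cell cannot be told apart.

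At the other times the Npy ranges of the 2 conditions overlapped. At ZT7, Npy was 6.98, 7.15 and 7.63 in CON and 7.29, 7.23 and 6.96 in TSR. At ZT13 it was 7.37, 6.995 and 7.01 in CON and 7.03, 6.61 (narrow) and 6.98 in TSR. At ZT19 it was 6.97, 6.88 (narrow) and 6.48 (narrow) in CON and 6.53, 7.001 and 6.999 in TSR. None of these times gave a difference past the threshold. The differences in the 20 arrays were -0.091 ± 0.16, -0.12 ± 0.18 and -0.12 ± 0.23, with 95% intervals from -0.43 to 0.25, -0.50 to 0.26 and -0.60 to 0.36. With 24 arrays they were -0.091, -0.25 and 0.068.

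Averaged over the 4 times, Npy differed by -0.26 ± 0.10 (limma adjusted p = 0.0365) in the 20 arrays and by -0.23 ± 0.10 (limma adjusted p = 0.345) in the 24. In the 20, 7 of 10 TSR arrays lay below the CON mean of their time, and in the 24, 9 of 12 did. The share of all probe sets with such counts was not computed, here or for Pomc below. An exact permutation of the condition labels within times, two-sided, gave p = 0.0501 over 8000 regroupings in the 20 arrays and p = 0.0473 over 160000 in the 24. Both Npy calls in the 20 depended on single arrays. The ZT1 call was kept in 15 of 19 fits that each left out 1 further array (-0.82 to -0.57). It was lost without TSR replicate 1 at ZT1 (limma adjusted p = 0.211), TSR replicate 2 at ZT1 (0.123), CON replicate 1 at ZT1 (0.120) and CON replicate 3 at ZT1 (0.0547). The average was kept in 12 of 19 (-0.29 to -0.21). It was lost without replicate 1 of TSR at ZT1 (0.0799), of TSR at ZT19 (0.0622), of CON at ZT1 (0.0651) or of CON at ZT13 (0.0601), and without replicate 3 of TSR at ZT7 (0.0647), of TSR at ZT13 (0.0689) or of CON at ZT7 (0.0521).

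The order of the 8 Npy group means in the 20 arrays ran from CON at ZT7 (7.25 ± 0.34, SD, n = 3), CON at ZT1 (7.22 ± 0.25, n = 3) and TSR at ZT7 (7.16 ± 0.18, n = 3) to TSR at ZT19 (6.84 ± 0.27, n = 3) and TSR at ZT1 (6.51 ± 0.10, n = 2). Ranges of neighbours in this order overlapped, except TSR at ZT13 (7.01 ± 0.039, n = 2) and the single CON array at ZT19 (6.97), whose group means differed by 0.040. Within TSR, Npy was lowest at ZT1 and highest at ZT7.

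**Figure D1:**
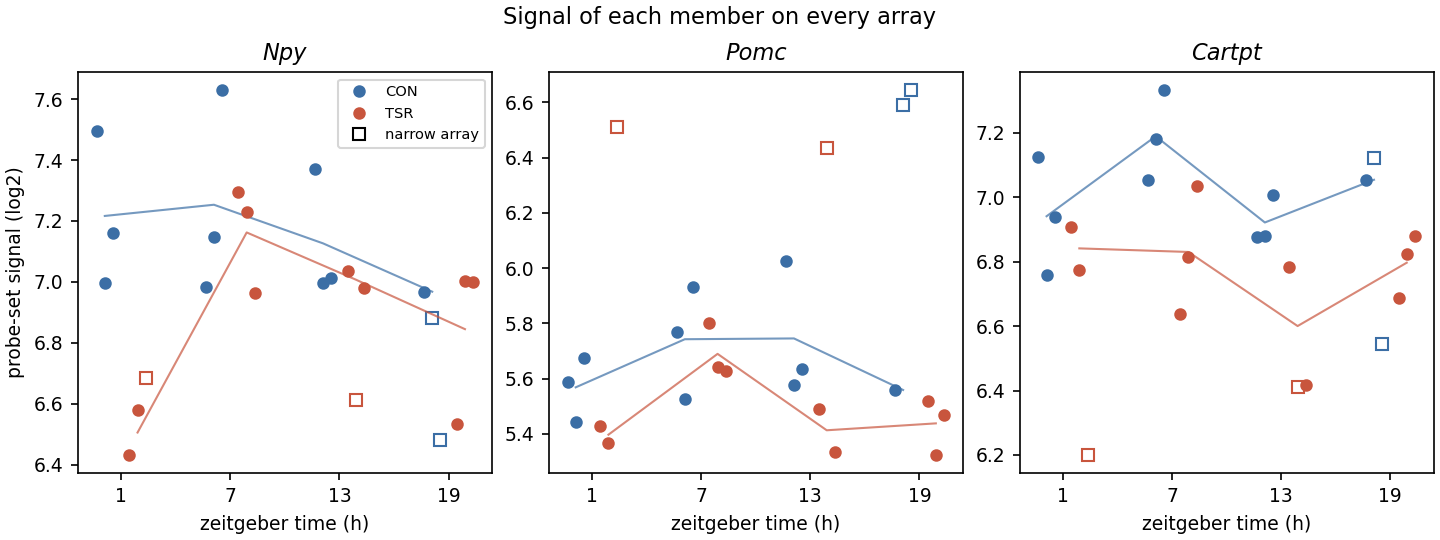
Log2 signal of Npy, Pomc and Cartpt (vertical axis, one panel per gene) against zeitgeber time in hours, one point per array, CON in blue and TSR in red, shifted sideways for legibility. Open squares are the 4 narrow arrays, and lines join the group means of the other 20. Npy in TSR at ZT1 lies below CON, the Cartpt line for TSR lies below that for CON at each time, and all 4 open squares for Pomc lie at 6.44 to 6.64, above the other 20 arrays.

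Pomc, the precursor of the melanocortins, was at a low signal, and its largest difference rested on narrow arrays. Its mean over the 20 arrays was 5.59, under the level of 5.79 that marks the lowest 40% of genes. At ZT19, Pomc was 5.56, 6.59 (narrow) and 6.64 (narrow) in CON and 5.52, 5.32 and 5.47 in TSR. The 2 high values are the 2 narrow CON arrays. With 24 arrays the difference at ZT19 was -0.83 ± 0.31 (limma adjusted p = 0.0376), in a comparison where 49.6% of all probe sets were called. Without them it was -0.12 ± 0.18 (3 TSR arrays and 1 CON array, limma adjusted p = 0.703), where 13.3% were called. Every TSR array lay below every CON array at ZT19 with and without them, as for 24% and 35.8% of all probe sets.

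The 4 narrow arrays held the 4 highest Pomc signals of the series. They ranged from 6.44 to 6.64, and the other 20 from 5.32 to 6.02. Against the other arrays of their own group they stood higher by 1.11 in TSR at ZT1, 1.02 in TSR at ZT13 and 1.06 in CON at ZT19. The narrow arrays were higher for dim probe sets and lower for bright ones as a whole. Among the tenth of probe sets with signals like that of Pomc the median shift was 0.68, and the mean shift of Pomc, 1.07, stood at the 74.3rd percentile of them. The mean shifts of Npy (-0.17) and Cartpt (-0.35) stood at the 80.5th and 49.4th percentiles of theirs.

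**Figure D2:**
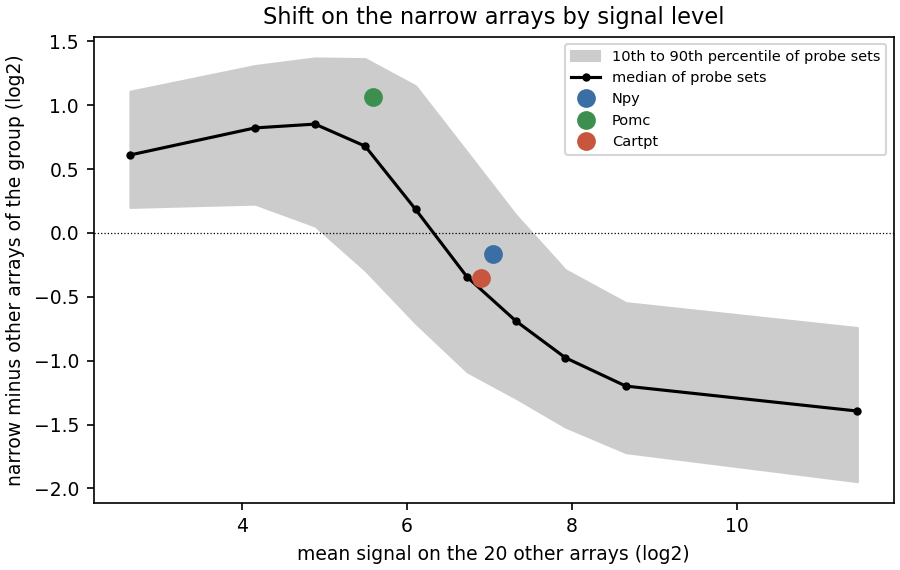
Signal on narrow arrays minus the other arrays of the same group (log2, vertical axis) against the mean signal on the 20 other arrays (log2, horizontal axis). The black line is the median of probe sets in 10 groups by signal, the grey band their 10th to 90th percentile, and the coloured points are Npy, Pomc and Cartpt, which all lie inside the band, Pomc at 1.07.

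At the other times Pomc gave no difference past the threshold with either set of arrays. At ZT1 it was 5.59, 5.44 and 5.67 in CON and 5.43, 5.37 and 6.51 (narrow) in TSR. At ZT7 it was 5.77, 5.53 and 5.93 in CON and 5.80, 5.64 and 5.63 in TSR, and the ranges overlapped. At ZT13 it was 6.02, 5.58 and 5.63 in CON and 5.49, 6.44 (narrow) and 5.34 in TSR. Without the narrow arrays, TSR lay below CON at ZT1 and ZT13, as did 24.9% and 23.2% of all probe sets. The differences in the 20 arrays were -0.17 ± 0.15 at ZT1, -0.053 ± 0.13 at ZT7 and -0.33 ± 0.15 at ZT13 (limma adjusted p = 0.1004 at ZT13). With 24 arrays they were 0.20, -0.053 and 0.0084, so the sign at ZT1 and ZT13 turned with the narrow arrays.

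Averaged over the 4 times, the Pomc difference was -0.17 ± 0.076 (limma adjusted p = 0.0901) in the 20 arrays, and 9 of 10 TSR arrays lay below the CON mean of their time. The exact permutation within times gave a two-sided p of 0.0196 there and 0.350 with 24 arrays. With 24 arrays the difference was -0.17 ± 0.15 (limma adjusted p = 0.751), and 9 of 12 TSR arrays lay below the CON mean of their time. In the 20, the difference passed the threshold in 1 of 19 fits that left out a further array. That was the fit without CON replicate 2 at ZT7 (-0.20, limma adjusted p = 0.0393). The Pomc group means of the 20 ran from CON at ZT13 (5.75 ± 0.24, SD, n = 3), CON at ZT7 (5.74 ± 0.20, n = 3) and TSR at ZT7 (5.69 ± 0.10, n = 3) through CON at ZT1 (5.57 ± 0.12, n = 3) and CON at ZT19 (5.56, 1 array) to TSR at ZT19 (5.44 ± 0.10, n = 3), ZT13 (5.41 ± 0.11, n = 2) and ZT1 (5.40 ± 0.043, n = 2). Neighbours overlapped, except CON and TSR at ZT19.

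Cartpt was lower under sleep restriction over the day in the 20 arrays, by 1.20-fold (95% interval 1.08 to 1.32). At ZT1 Cartpt was 7.12, 6.76 and 6.94 in CON and 6.91, 6.77 and 6.201 (narrow) in TSR, with overlapping ranges. At ZT7 it was 7.05, 7.18 and 7.33 in CON and 6.64, 6.82 and 7.04 in TSR, all 3 TSR arrays below all CON arrays. At ZT13 it was 6.88, 6.88 and 7.01 in CON and 6.78, 6.41 (narrow) and 6.42 in TSR, again without overlap. At ZT19 it was 7.05, 7.12 (narrow) and 6.55 (narrow) in CON and 6.69, 6.82 and 6.88 in TSR, overlapping with the narrow arrays and apart without them, on 1 CON array, as for 35.8% of all probe sets. In 24 arrays, TSR lay below CON without overlap for 13.8% of all probe sets at ZT7 and 15.4% at ZT13.

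The Cartpt difference averaged over the 4 times was -0.26 ± 0.070 (limma adjusted p = 0.00586) in the 20 arrays. Every one of the 10 TSR arrays lay below the CON mean of its time, as did all 12 with the narrow arrays included. The share of all probe sets with every TSR array below was not computed. The exact permutation within times gave a two-sided p of 0.00163 in the 20 and 0.00348 in the 24. With 24 arrays the difference was as large, -0.29 ± 0.10, at a limma adjusted p of 0.158. The call in the 20 was kept in 19 of 19 fits that left out a further array (-0.31 to -0.21, limma adjusted p from 0.00191 to 0.0238). The single CON array at ZT19 was in all of these fits.

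By time, Cartpt passed the threshold in the 20 arrays at ZT7, with -0.36 ± 0.12 (limma adjusted p = 0.0436); 16.1% of all probe sets were called there. The call was kept in 10 of 19 fits that left out a further array (-0.46 to -0.26). Of the 9 that lost it, the fits without TSR replicate 1 (-0.26, adjusted p = 0.217), TSR replicate 2 (0.109), CON replicate 2 (0.0722) and CON replicate 3 (0.142) at ZT7 took away an array of that time. The other 5 left out CON replicate 3 (0.0549), TSR replicate 1 (0.0521) or TSR replicate 2 (0.0520) at ZT1, CON replicate 2 at ZT13 (0.0520) or TSR replicate 2 at ZT19 (0.0540). With 24 arrays, in which 0.381% of all probe sets were called, the difference was the same size (SE 0.19) and did not pass the threshold.

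At ZT13 the Cartpt difference was -0.32 ± 0.13 (limma adjusted p = 0.0797) in the 20 arrays and -0.38 in the 24, where 27.8% and 0.0734% of all probe sets were called. The former became -0.51 (adjusted p = 0.0273) without TSR replicate 1 and -0.14 (0.644) without TSR replicate 3 of ZT13. At ZT1 and ZT19 it was -0.10 ± 0.13 and -0.26 ± 0.17 in the 20, and -0.31 and -0.11 in the 24. The Cartpt group means of the 20 put all 4 CON groups first, from ZT7 (7.19 ± 0.14, SD, n = 3) and ZT19 (7.05, 1 array) to ZT1 (6.94 ± 0.18, n = 3) and ZT13 (6.92 ± 0.075, n = 3). The TSR groups followed, from ZT1 (6.84 ± 0.10, n = 2), ZT7 (6.83 ± 0.20, n = 3) and ZT19 (6.80 ± 0.10, n = 3) to ZT13 (6.60 ± 0.26, n = 2). Neighbours in this order overlapped.

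**Figure D3:**
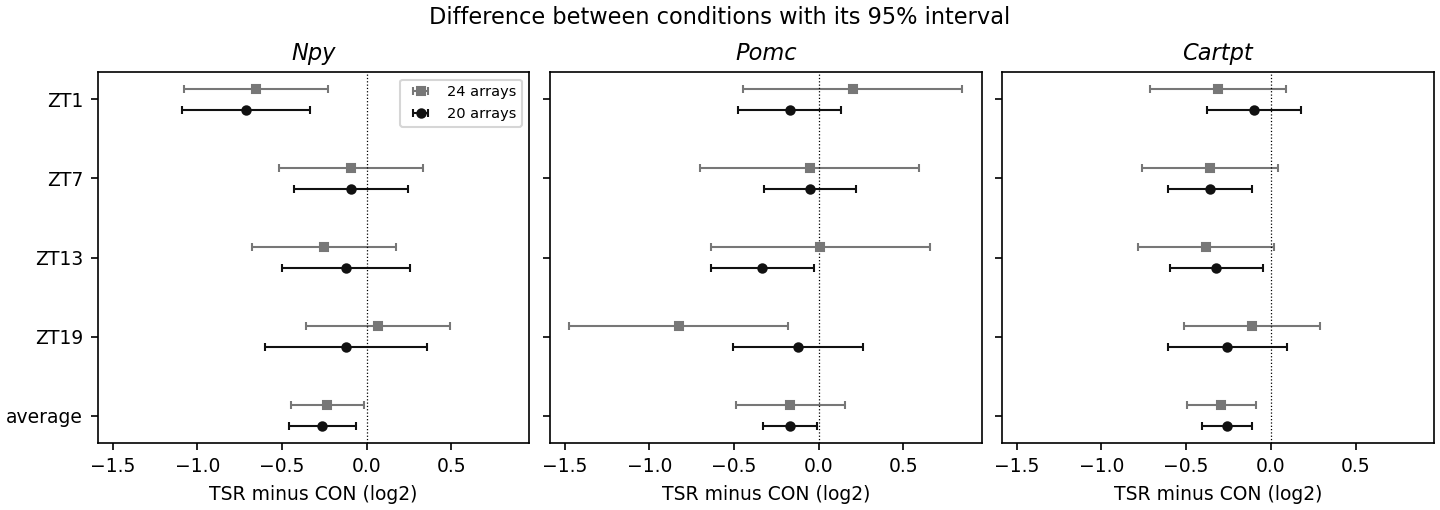
TSR minus CON (log2, horizontal axis) for Npy, Pomc and Cartpt at each time and averaged over the 4 times, with all 24 arrays (grey squares) and with the 20 arrays (black circles); bars are 95% intervals. In the 20 arrays the interval lies below 0 for Npy at ZT1, Pomc at ZT13, Cartpt at ZT7 and ZT13 and the average of each gene, before adjustment over genes; for Pomc at ZT19 the 24-array interval lies below 0 and the 20-array interval spans it.

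Over the average of the 4 times, 2 of the 3 measured genes were called lower in the 20 arrays. The median of the 3 differences was -0.26, against -0.018 over all probe sets. Of all probe sets, 37.0% were called in that comparison, 15.4% as lower in TSR. With 24 arrays limma called 0 of 3, with 2 at an unadjusted p under 0.05; 1.49% of all probe sets were called, 0.872% as lower.

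None of the 3 genes gave a called 24-h rhythm in limma with either set of arrays. In the 20, the fitted amplitude in CON was 0.15 for Npy, 0.13 for Pomc and 0.068 for Cartpt, with limma adjusted p from 0.533 to 0.859. In TSR it was 0.30 for Npy (limma adjusted p = 0.0902), 0.13 for Pomc (adjusted p = 0.370) and 0.12 for Cartpt (adjusted p = 0.461). Of all probe sets, 11.6% were called in CON and 12.3% in TSR. The count at an unadjusted p under 0.05 was thus 1, Npy in TSR. With 24 arrays no member reached an unadjusted p under 0.05, and the smallest was 0.0834, for Npy in CON; 0.0459% of all probe sets were called in CON and 0.216% in TSR.

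Whether the effect of sleep restriction differed between times was tested directly. In the 20 arrays the Npy effect ranged over 0.62 log2 units across the 4 times (limma adjusted p = 0.1996), where 16.3% of all probe sets were called (0.298% with 24 arrays). Pomc ranged over 0.28 (adjusted p = 0.694) and Cartpt over 0.26 (adjusted p = 0.660). The lower Npy at ZT1 and the lower Cartpt at ZT7 are therefore not shown to be particular to those times. Rhythms of TSR and CON did not pass the threshold for a difference either, with limma adjusted p of 0.235 for Npy, 0.803 for Pomc and 0.610 for Cartpt in the 20 arrays. Of all probe sets, 16% passed it there and 0.243% in the 24.

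Array by array, Npy and Pomc varied together in the 20 arrays, with Pearson r = 0.64 (permutation p = 0.00227, adjusted over the 3 pairs 0.00681) and Spearman rho = 0.60 (permutation p = 0.00598, adjusted 0.0179). The coefficient was 0.54 without the 2 arrays farthest from the median Npy signal, 0.59 within the 10 CON arrays and 0.52 within the 10 TSR arrays. With the narrow arrays included r was -0.18. Npy and Cartpt gave r = 0.41 (permutation p = 0.0742, adjusted 0.0742) and rho = 0.24 (permutation p = 0.303, adjusted 0.303), with 0.57 within CON, -0.15 within TSR and 0.53 over all 24 arrays. Pomc and Cartpt gave r = 0.43 (permutation p = 0.0582, adjusted 0.0742) and rho = 0.40 (permutation p = 0.0851, adjusted 0.128), with 0.26 within CON, 0.15 within TSR and -0.27 over all 24 arrays. These points share array, dissection and normalization. Differences between the groups of condition and time were left in, and values were permuted over all 20 arrays without regard to group. The p-values therefore do not separate variation within groups from differences between groups. Among the 11870 to 11871 genes ranked by likeness below, 6.88% had r over 0.5 with Npy, 8.95% with Pomc and 7.38% with Cartpt. The correlation of Npy with Pomc is thus not shown to be particular to this pair.

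The genes whose signals were most like each member were ranked by Pearson r over the 20 arrays, as a description, among 11870 to 11871 genes above the signal level that marks the lowest 40%. For Npy they were Zfp513 (r = 0.87), Ckm (0.84), Col5a1 (0.83), Dhrs13os (0.83) and Gm7854 (0.82). Over all 24 arrays these coefficients lay between -0.18 and 0.028. For Pomc they were B3gnt7 (0.83), Col16a1 (0.82), Il17b (0.82), Wrnip1 (0.81) and Mir328 (0.81). Over all 24 arrays these were 0.86 to 0.96. For Cartpt they were 4930426D05Rik (0.81), Nr2f6 (0.80), Gm5244 (0.80), Pskh1 (0.79) and 2510039O18Rik (0.77). Over all 24 arrays these were -0.12, 0.71, 0.18, 0.19 and 0.67.

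Among the receptors of these peptides, 4 of 5 were called in the 20 arrays, 3 higher and 1 lower in TSR, averaged over times. Of all probe sets, 37.0% were called in that comparison. In this and every other list, each gene was represented by its probe set of highest mean signal. The share covers all probe sets, dim ones included, so lists and share are not matched for signal. Npy2r, the receptor through which neuropeptide Y restrains its own neurons, rose by 0.29 ± 0.057 (limma adjusted p = 0.000376), and Npy1r, a postsynaptic receptor for the peptide, by 0.28 ± 0.083 (adjusted p = 0.0107). Mc4r, the melanocortin receptor central to satiety, rose by 0.28 ± 0.058 (adjusted p = 0.000840). Mc3r, the other neural melanocortin receptor, fell by 0.16 on the log2 scale (adjusted p = 0.0433). Npy5r differed by 0.031 ± 0.078. With 24 arrays limma called 0 of 5, and 1 had an unadjusted p under 0.05.

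Among genes that cut and package peptide precursors, 6 of 12 measured were called in the 20 arrays, 2 higher and 4 lower, where 37.0% of all probe sets were. Pcsk1, the convertase that makes the first cuts in pro-opiomelanocortin, rose by 0.86 ± 0.043 (limma adjusted p = 3.49e-11). Pcsk1n, whose product inhibits that convertase, fell by 0.77 on the log2 scale (SE 0.031, adjusted p = 1.45e-12). Vgf, a precursor stored in secretory granules, fell by 0.36 (SE 0.050, adjusted p = 1.24e-05), and Prcp, which inactivates alpha-melanocyte-stimulating hormone, rose by 0.37 ± 0.053 (adjusted p = 1.96e-05). With 24 arrays limma called 0 of 12, with 3 at an unadjusted p under 0.05. The median of the 12 differences was -0.029, against -0.018 for all probe sets.

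Among hormone receptors and their signalling genes, 8 of 16 were called in the 20 arrays, 4 in each direction, beside 37.0% of all probe sets. Irs4 and Irs2, adaptors of the insulin receptor, fell by 0.50 (SE 0.070, limma adjusted p = 1.42e-05) and 0.31 (SE 0.041, adjusted p = 7.36e-06). Insr, the insulin receptor, rose by 0.28 ± 0.051 (adjusted p = 0.000262), and Lepr, the leptin receptor, by 0.36 ± 0.084 (adjusted p = 0.00217). With 24 arrays limma called 0 of 16, and 3 had an unadjusted p under 0.05. Thus members of the insulin pathway were called in both directions.

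Of 11 measured transcription factors of arcuate neurons, 5 were called in the 20 arrays, 1 higher and 4 lower, a share near the 37.0% of all probe sets. Otp, needed for the development of neuroendocrine and Agrp neurons, fell by 0.59 (SE 0.049, limma adjusted p = 2.73e-08), and it is the 1 gene of this list called in 24 arrays (-0.51, adjusted p = 0.0102). Six6 fell by 0.41 (SE 0.082, adjusted p = 0.000527). Bsx, a factor of Npy and Agrp neurons, fell by 0.24 (SE 0.074, adjusted p = 0.0156). Isl1, a factor of Pomc neuron development, rose by 0.22 ± 0.055 (adjusted p = 0.00307).

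Of 18 other hypothalamic peptide genes, 11 were called in the 20 arrays, 3 higher and 8 lower; of all probe sets 37.0% were called, 15.4% lower. Sst (somatostatin) fell by 0.44 (SE 0.030, limma adjusted p = 2.39e-09), Trh (thyrotropin-releasing hormone) by 0.64 (SE 0.050, adjusted p = 1.12e-08) and Pnoc (prepronociceptin) by 0.35 (SE 0.048, adjusted p = 9.18e-06). Penk (proenkephalin) rose by 0.26 ± 0.028 (adjusted p = 4.56e-07). The median of the 18 was -0.13. With 24 arrays limma called 0 of 18, and 3 had an unadjusted p under 0.05.

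**Figure D4:**
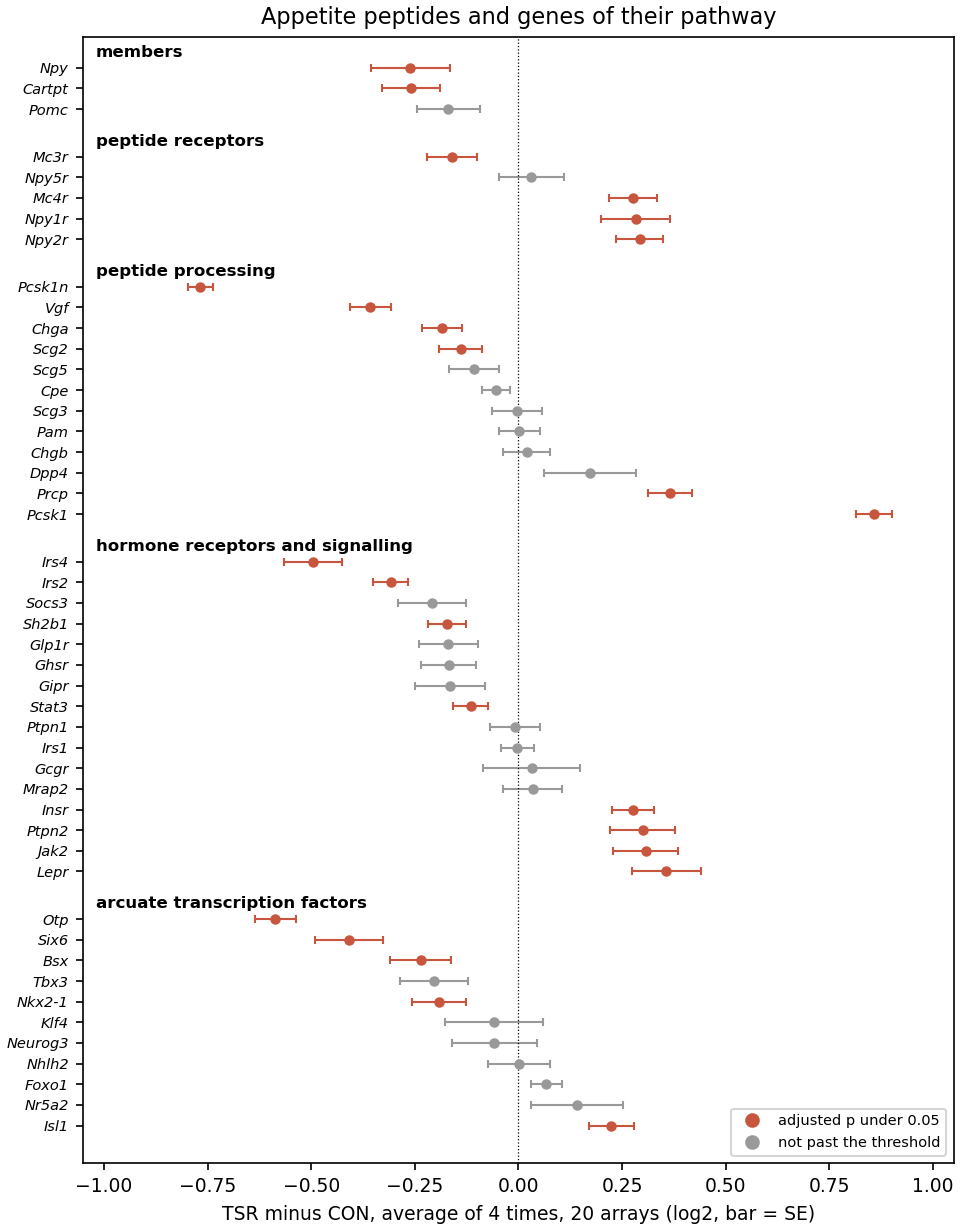
TSR minus CON averaged over the 4 times in the 20 arrays (log2, horizontal axis, bars are SE) for the 3 measured peptides and 4 groups of pathway genes; red points have a limma adjusted p under 0.05. Npy and Cartpt lie near -0.26 and Pomc at -0.17, between Pcsk1n (-0.77) and Pcsk1 (0.86).

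The tissue label was checked with region markers. Of 9 arcuate markers measured, 6 lay above the level that marks the lowest 40% of genes. In the 20 arrays 5 were called (37.0% of all probe sets were), 4 lower and 1 higher in TSR: Otp and Isl1 as above, Tac2 at -0.41, Ghrh at -0.25 and, outside the 4 of smallest p, Kiss1 at -0.22. With 24 arrays 1 was called, Otp. Among the 20 arrays, the mean signal of the list was lower in TSR than in CON at ZT1 (6.15 to 6.17 against 6.25 to 6.43), ZT13 (6.17 to 6.19 against 6.24 to 6.34) and ZT19 (6.10 to 6.21 against 6.398 on 1 array). At ZT7 the ranges overlapped (6.25 to 6.28 against 6.21 to 6.41). The narrow TSR arrays were at 6.31 (ZT1) and 6.26 (ZT13), inside the CON ranges, so the separation at those times is not there with 24 arrays. Of all probe sets taken singly in the 20, TSR lay below CON without overlap for 24.9% at ZT1, 23.2% at ZT13 and 35.8% at ZT19. In limma 1 of the 9 markers was called at ZT1 and 2 at ZT13, beside 5.52% and 27.8% of all probe sets. The part of the arcuate markers in the peptide results was not tested.

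Markers of striatum and basal forebrain differed more. Of 10 measured, 9 were above that signal level and 9 were called higher in TSR in the 20 arrays, where 37.0% of all probe sets were called in either direction; with 24 arrays 5 were. Among them was Slc5a7, the choline transporter of cholinergic neurons, at 1.80 ± 0.068, and the list median was 0.83 in the 20. Leaving out the narrow arrays, their mean signal in CON was 7.32 to 7.44 at ZT1, 6.26 to 6.44 at ZT7, 7.06 to 7.14 at ZT13 and 6.26 on 1 array at ZT19. In TSR it was 7.46 to 7.48, 7.82 to 7.85, 7.40 to 7.50 and 7.21 to 7.25. The gap was widest at ZT7 and narrowest at ZT1. The part of the dissected area in the peptide results was not tested.

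Pituitary markers bear on Pomc, which corticotrophs also make. Of 10 measured, 1 lay above that signal level and 1, Pax7 (-0.28, limma adjusted p = 0.0124), was called in the 20 arrays, and 0 with 24 arrays by limma, 0 of them at an unadjusted p under 0.05. Their mean signal was 4.53 to 5.02 on the 20 arrays and 5.71 to 6.16 on the narrow ones, where Pomc was high too. Over all probe sets of signals between 4.58 and 5.20, the median shift on the narrow arrays was 0.85 (10th to 90th percentile 0.054 to 1.37), so dim probe sets as a whole stood higher there. The part of pituitary cells there was not tested.

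In the remaining marker lists, calls over the average in the 20 arrays, beside 37.0% of all probe sets, numbered 4 of 8 for the ventromedial nucleus (3 lower), 9 of 11 for the suprachiasmatic nucleus (all lower), 6 of 8 for paraventricular and supraoptic nuclei (4 lower) and 6 of 8 for thalamus and cortex (5 higher). They numbered 5 of 9 for tanycytes and ependyma (3 higher), 3 of 7 for choroid plexus (all higher), 7 of 12 for neurons (5 higher) and 5 of 8 for oligodendrocytes (all higher). With 24 arrays, beside 1.49% of all probe sets, they numbered 4 for the suprachiasmatic nucleus, 2 each for thalamus and cortex and for choroid plexus, and 1 each for paraventricular and supraoptic nuclei and for tanycytes and ependyma. They numbered 0 in limma for the ventromedial nucleus, neurons and oligodendrocytes, with 3, 1 and 1 at an unadjusted p under 0.05. The lists share genes and are not independent. Six6, named above as an arcuate factor, is also a suprachiasmatic marker, and Trh is also a paraventricular one. Avp is in the suprachiasmatic and paraventricular lists, and Nr0b1 in the arcuate and ventromedial lists. The lateral hypothalamus list holds Cartpt itself. Of its 5 genes 3 were called in the 20 arrays, Cartpt lower and Tacr3 (0.82) and Lhx9 (0.41) higher. With 24 arrays 1 was, Tacr3 (0.71).

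**Figure D5:**
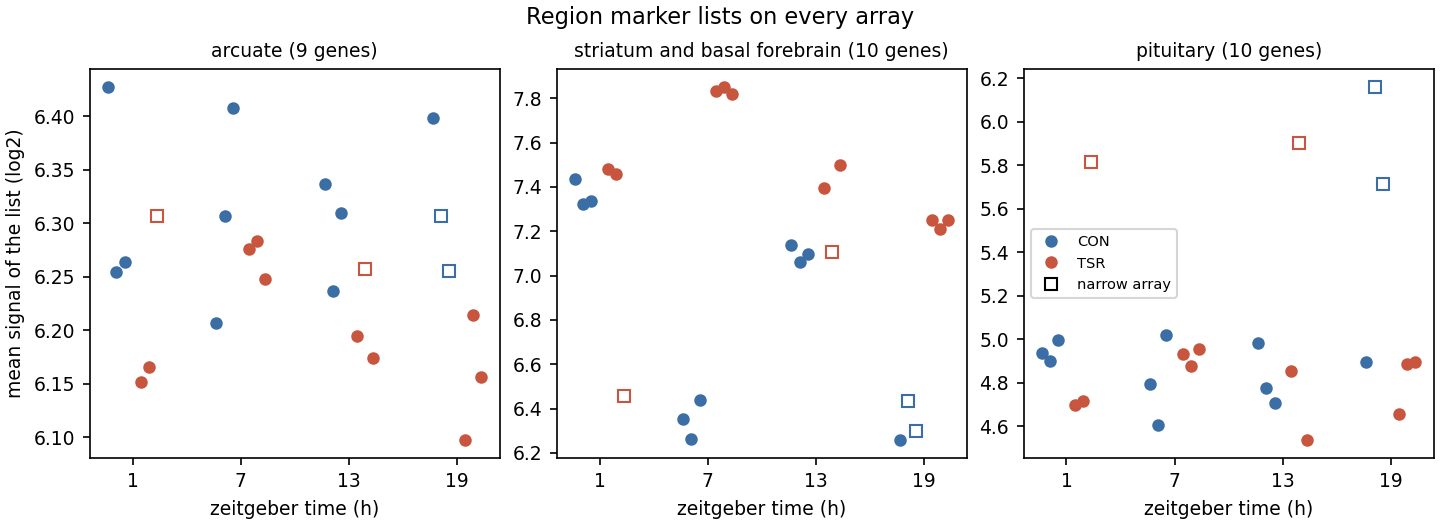
Mean log2 signal of 3 marker lists (vertical axis) on each array against zeitgeber time in hours, CON in blue, TSR in red, open squares for narrow arrays. Arcuate markers lie lower in TSR at ZT1, ZT13 and ZT19 among the filled points, striatal and basal forebrain markers lie higher in TSR at each time among them, and pituitary markers lie at 5.71 to 6.16 on the 4 narrow arrays.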

How the data were processed

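RNA of 24 mediobasal hypothalamus samples was measured on 1 array each. The deposited values are log2 signals. Per the submitters' processing notes, the software was Affymetrix Expression Console; its version and the normalization method are not stated in the labels or headers used. As deposited, 2891 of 853344 values (0.339%) looked off by a factor of 10, as if a decimal point had been lost, and were moved by that factor. Values under 1 were always multiplied by 10, and others were moved where this brought them nearer to the row's undoubted values. Rows with few undoubted values used a fixed or whole-row reference. Another 1 value was set missing, and 9 were missing as deposited. None lay in the 3 members. Members, gene lists and tests were chosen with earlier results of these data known.

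Probe sets were named from the platform annotation (21789 with 1 symbol, 1621 with several, 12146 with none). Conditions were compared in limma 3.58.1 (R 4.3.3) with 8 group means, a mean-variance trend and Benjamini-Hochberg adjustment over all 21789, at a threshold of 0.05. The code was run on simulated data with noise independent between probe sets and arrays. That simulation held no narrow arrays, so it cannot show how they affect the calls. At 3 against 3 an exact test cannot go below 0.1. A 24-h rhythm was an F test on 2 contrasts. The number of arrays limits the precision. No 2 arrays of a group were duplicates: they differed by a root mean square of 0.198 to 1.11. From each list, up to 4 genes with the smallest p in the 20 arrays are named. Exact permutations enumerated every regrouping within times, and correlation p-values came from random permutations. Promoter sequences are RefSeq's. Alternatives covered narrow arrays, normalization, filter, trend, robustness, array weights, replicate block and leaving out each array.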

Additional observations from a re-analysis of the deposited data

How the results depend on the processing

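Of 354 values of 27 results under settings other than leaving out 1 array, 301 counted as unchanged. Unchanged meant the same side of the threshold and, for differences between conditions, the same direction. For rhythms and interactions only the side of the threshold was compared. Median centring, no trend, robust estimation and damaged values set missing were among the settings without a change. Leaving out the 4 narrow arrays brought Npy at ZT1 (-0.71), Npy averaged over times (-0.26), Cartpt at ZT7 (-0.36) and Cartpt averaged (-0.26) past the threshold, took Pomc at ZT19 below it (-0.12) and turned the sign of Npy at ZT19 (-0.12) and of Pomc at ZT1 (-0.17) and ZT13 (-0.33). Members called then numbered 2 for the average, 1 at ZT1, 1 at ZT7 and 0 at ZT19. These settings added after seeing the data gave the following. With renewed quantile normalization of the 20, the values were -0.73, -0.29, -0.36 and -0.29 for the first 4, -0.039 for Pomc at ZT19, and -0.20, -0.087 and -0.33 for the 3 turned signs, with 2, 1, 1 and 0 calls. With the filter on the 20, the first 4 values equalled those of the 20 (-0.71, -0.26, -0.36 and -0.26). Npy at ZT19 was -0.12 there too, and calls numbered 2, 1, 1 and 0. Pomc did not pass the filter, so it has no value under this setting. A term for narrow arrays in the 24 brought all 3 averages past the threshold (Npy -0.23, Pomc -0.17, Cartpt -0.29, 3 calls), but not Npy at ZT1 (-0.60, adjusted p = 0.104) or Cartpt at ZT7 (-0.36, adjusted p = 0.139). It took Pomc at ZT19 below it (-0.12, 0 calls) and turned Npy at ZT19 (-0.044) and Pomc at ZT1 (-0.15) and ZT13 (-0.35). The share of all probe sets called under this term is not given here, so the 3 calls stand without their background.

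On all 24 arrays, quantile normalization brought the Cartpt average past the threshold (-0.36, 1 call) and turned Npy at ZT19 (-0.17). Array weights brought past it Npy at ZT1 (-0.68, 1 call), the Pomc average (-0.41, 1 call), the rhythms of Npy in TSR (amplitude 0.28, 1 call) and Pomc in CON (0.42, 1 call), both rhythm differences (Npy 0.34, Pomc 0.57, 2 calls) and both interactions (Npy 0.96, Pomc 1.14, 2 calls). They turned the sign of Npy at ZT7 (0.075), Pomc at ZT1 (-0.18) and ZT13 (-0.20) and Cartpt at ZT19 (0.037). Fitting only the 6 arrays of ZT19 took Pomc there below the threshold (-0.83, adjusted p = 0.0770, 0 calls), and Pomc did not pass the filter on the 24 (0 calls). The exact permutation within times, a single test without adjustment over genes, gave p = 0.0473 for Npy (-0.23) and 0.00348 for Cartpt (-0.29). The shares of all probe sets called under quantile normalization and array weights are not given here, so those counts stand without their background. The cause of these changes was not tested.

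Leaving out 1 of the 24 arrays at a time, Pomc at ZT19 ranged from -1.18 to -0.64. It lost the call (0 to 1 calls) without TSR replicates 1, 2 or 3 of ZT19 (limma adjusted p = 0.0899, 0.0878 and 0.0674) and without CON replicates 2 or 3 of ZT19 (0.167 and 0.163). Without CON replicate 1 of ZT19, the Pomc rhythm in CON and the Pomc interaction passed the threshold (0 to 1 calls each); their ranges were 0.19 to 0.45 and 0.83 to 1.38. Signs turned within the ranges of Npy at ZT7 (-0.23 to 0.10) and ZT19 (-0.080 to 0.22) and of Pomc at ZT1 (-0.17 to 0.40), ZT7 (-0.16 to 0.042) and ZT13 (-0.33 to 0.22).

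The replicate numbers share only a number: of 12 same-numbered pairs, 5 had a correlation of deviations over 0.1 (range -0.39 to 0.44). With the replicate block on 24 arrays the averages were -0.23 (Npy), -0.17 (Pomc) and -0.29 (Cartpt), with 0 calls. With the replicate block on the 20, Npy at ZT1 (-0.70), the Npy average (-0.26), Cartpt at ZT7 (-0.36) and the Cartpt average (-0.26) passed the threshold as without it. Pomc was -0.024 at ZT19, -0.16 at ZT1 and -0.39 at ZT13 (adjusted p = 0.0342), and Npy was -0.12 at ZT19; calls numbered 2 for the average and 1 at ZT1, 1 at ZT7, 1 at ZT13 and 0 at ZT19. The low signal of Pomc and the single wide CON array at ZT19 limit what can be said of them.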
